A study of Homo sapiens with 12 samples.

Results

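FoxK1 binding was examined at the transcription starts of 10 human genes of mitochondrial biogenesis and respiration: TFAM, NRF1, PPARGC1B, CS, CYCS, POLG, TFB1M, TFB2M, SIRT3 and OPA1. A peak belonged to a gene when its summit lay within 5 kb of the gene's start on genome build hg19; this rule uses gene names and positions only, though the set was drawn up with earlier results of these data known. The 10 windows held 68 peaks in 15 merged regions, of 68127 regions in the whole data set. Peaks came from chromatin immunoprecipitation of FoxK1, a forkhead transcription factor, in HepG2 cells, an established human hepatocellular carcinoma line. All cells spent 16 h in serum-free medium; 3 libraries were then made after 20 min of 100 nM insulin and 3 from untreated cells. The list lengths ran from 26082 to 48208 peaks, and the total reads of each library are unknown. Nothing in the labels says that the 3 libraries of a treatment came from separate cultures, so a p-value here speaks of the spread among these libraries, which may be technical. The lists hold positions and no expression, so the cell line could not be checked by markers.

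Most mitochondrial proteins are encoded in the nucleus, and their genes are switched on together by nuclear regulators such as NRF1 and the PGC-1 coactivators. TFAM, TFB1M, TFB2M and the polymerase POLG act on the mitochondrial genome itself, in its packaging, transcription, ribosome assembly or copying. Citrate synthase (CS) and cytochrome c (CYCS) belong to the citric acid cycle and the respiratory chain, SIRT3 deacetylates mitochondrial enzymes, and OPA1 fuses inner membranes. In liver cells this programme sets the capacity to oxidise fuel, and insulin signalling to forkhead factors is a known input to hepatic metabolism.

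FoxK1 was found at or near the starts of 8 of the 10 genes in every library, with or without insulin. TFB2M carried by far the strongest of these sites, then OPA1, then TFAM and CYCS; TFB1M, POLG, SIRT3 and CS had sites of middle or low rank. NRF1 and PPARGC1B had no region called in all 6 libraries. Of the 15 regions, 8 (53.3%) were called in all 6 libraries, against 23.3% of all regions of the genome. That background covers regions anywhere in the genome, while these 15 were taken near gene starts; the share among other starts was not analysed here. The summits lay within 500 bp of the start in all 6 libraries for 7 genes, while the strongest summits of SIRT3 lay from -590 to -548 bp of the start used here. None of the 15 regions was called in 3 of 3 insulin and 0 of 3 untreated libraries, which held for 0.376% of all regions. None showed the reverse, against 0.0352% of all regions.

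**Figure D1:**
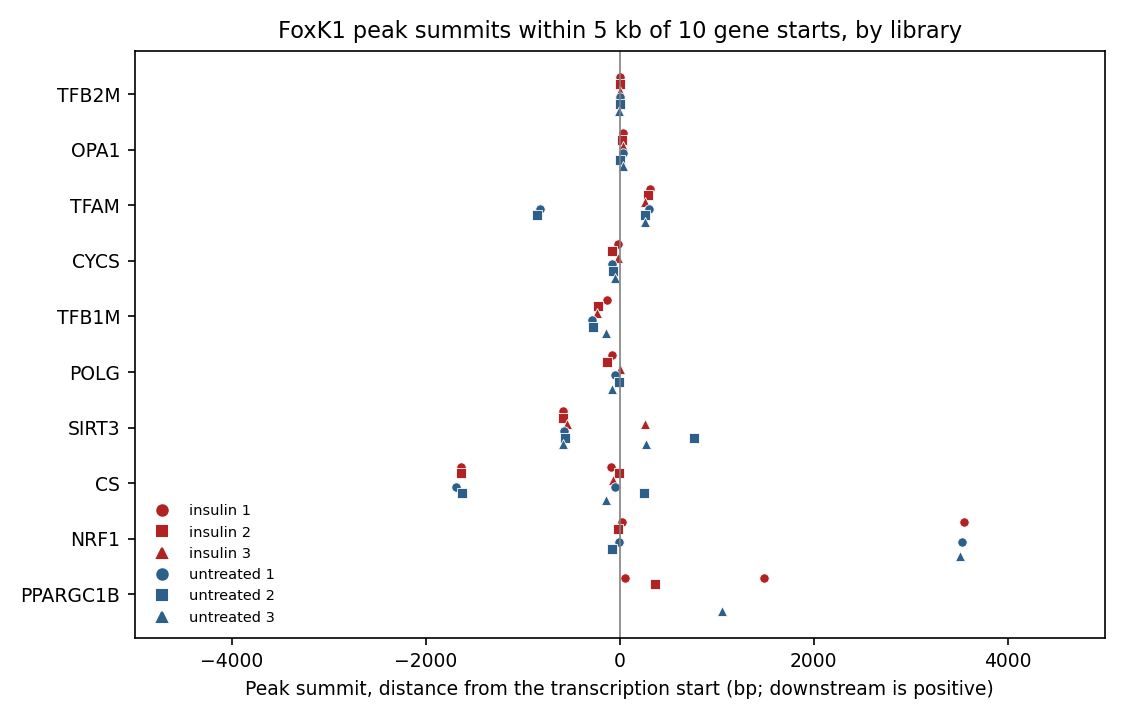
Positions of all 68 peak summits within 5 kb of the 10 starts, in bp along the direction of transcription; each point is 1 peak, red for insulin and blue for untreated, and the marker shape gives the replicate number. The summits of TFB2M and OPA1 lie within 37 bp of the start in all 6 libraries, while NRF1 and PPARGC1B have no site that all 6 libraries share.

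The deposited fold of a peak is its summit over the background estimated there in its own library, and −log10 q is the deposited measure of its confidence. Peaks are ranked here by −log10 q within their list, and the percentile is the share of the list ranked at or below the peak. Folds of different lists cannot be set against each other as binding, since lists differ in background. The median fold of a list ran from 4.78 to 5.95 in the insulin libraries and from 4.18 to 4.65 in the untreated ones.

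TFB2M, a transcription factor of the mitochondrial genome that helps its RNA polymerase open promoters, had one of the strongest FoxK1 sites of the genome. Its region spanned chromosome 1, 246728911 to 246730338 (hg19). The peak stood at rank 98, 84 and 71 of its list in insulin replicates 1, 2 and 3, and at 89, 98 and 113 in untreated replicates 1, 2 and 3. It was thus among the strongest 113 peaks of every list, and the treatments overlapped. The fold was 54.4, 58.0 and 37.6 after insulin and 26.7, 23.9 and 25.9 without it. The 3 insulin folds were all higher, and the same was true of 34.2% of the 15887 regions called in all 6 libraries, against 0.00629% with all insulin folds lower. The number of fragments at the summit, worked out from the deposited fold and p, was 409, 573 and 166 after insulin and 514, 290 and 132 without it. These counts overlapped between treatments. The expected background was 6.54, 8.90 and 3.44 fragments after insulin and 18.3, 11.2 and 4.13 without it, higher in the untreated library of each number; its part in the fold difference was not tested. The counting interval was 527 to 622 fragments for the highest count and 110 to 157 for the lowest (exact Poisson, 95%, counting error only).

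Summits at TFB2M coincided closely. They lay at 0, 4 and -1 bp from the start after insulin and at 4, 3 and -10 bp without it. This span of 14 bp compares with a median of 94 bp over all regions called in all 6 libraries, and 2.02% of those had a span of 14 bp or less. The site took rank 80 among those regions by mean percentile, with 0.497% of them above it. RefSeq's annotation (GRCh38.p14) places CNST on the other strand just upstream of TFB2M, so the peak cannot be assigned to 1 of this divergent pair.

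OPA1 encodes the dynamin-like GTPase of the inner mitochondrial membrane, which fuses membranes and shapes cristae. Its region spanned chromosome 3, 193310682 to 193311791 (hg19), and the summits lay between 2 and 37 bp downstream of the start. The fold was 18.1, 18.0 and 17.1 after insulin and 8.26, 7.4 and 7.91 without it, so the groups did not overlap. Of the 15887 regions called in all 6 libraries, 34.2% likewise had every insulin fold higher, and 0.00629% had every one lower. In its own list the peak stood at the percentiles 96.9, 96.4 and 97.1 after insulin and 94.1, 92.6 and 88.6 without it. The summit held 158, 195 and 74 fragments after insulin and 177, 101 and 44 without it, and these counts overlapped. The background was 7.78, 9.87 and 3.40 fragments after insulin and 20.6, 12.8 and 4.69 without it. In the annotation ATP13A4 starts on the opposite strand just upstream, so the site cannot be assigned to OPA1 alone.

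The sequences just upstream of 5 RefSeq starts are shown. They are the promoters beside the sites of highest mean percentile among the 8 called in all 6 libraries. Summits were measured from the hg19 starts used here, within 10 bp for TFB2M and downstream for OPA1 and TFAM. Those starts were not lined up with the RefSeq starts, so whether a summit falls inside a printed window is not known. The first 3 are the promoters with a match to the NRF1 motif, and the last 2 are those of TFAM and CYCS, next in rank after OPA1. Each is the 250 bases before the RefSeq start (GRCh38.p14), read 5′ to 3′ along the gene's strand. Capitals mark matches on either strand to NRF1 (GCGCATGCG), ETS (CCGGAAG), SP (GGGCGG) and CCAAT. The locations are chr1:246566262-246566511, minus strand, for TFB2M; chr3:193592958-193593207, plus strand, for OPA1; chr6:155314485-155314734, minus strand, for TFB1M; chr10:58385160-58385409, plus strand, for TFAM; and chr7:25125261-25125510, minus strand, for CYCS.
TFB2M: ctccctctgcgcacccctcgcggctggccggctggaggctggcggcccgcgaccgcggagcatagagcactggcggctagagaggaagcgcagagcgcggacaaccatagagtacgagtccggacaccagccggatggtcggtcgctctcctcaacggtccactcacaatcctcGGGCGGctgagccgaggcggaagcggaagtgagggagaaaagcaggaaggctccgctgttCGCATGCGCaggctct
OPA1: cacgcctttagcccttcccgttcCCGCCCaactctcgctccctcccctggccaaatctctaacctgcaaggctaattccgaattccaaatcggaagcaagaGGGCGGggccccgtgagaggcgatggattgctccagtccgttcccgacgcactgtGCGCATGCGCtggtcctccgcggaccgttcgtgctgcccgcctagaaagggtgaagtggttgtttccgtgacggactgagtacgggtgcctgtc
TFB1M: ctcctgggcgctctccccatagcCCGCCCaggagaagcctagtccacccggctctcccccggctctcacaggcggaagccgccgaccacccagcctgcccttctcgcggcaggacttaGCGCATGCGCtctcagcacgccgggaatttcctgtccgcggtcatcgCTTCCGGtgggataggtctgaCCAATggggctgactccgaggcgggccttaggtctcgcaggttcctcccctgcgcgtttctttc
TFAM: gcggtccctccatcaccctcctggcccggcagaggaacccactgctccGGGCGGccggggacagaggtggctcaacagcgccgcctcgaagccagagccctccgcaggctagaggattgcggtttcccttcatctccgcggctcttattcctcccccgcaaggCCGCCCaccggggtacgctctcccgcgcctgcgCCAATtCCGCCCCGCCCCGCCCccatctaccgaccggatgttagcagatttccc
CYCS: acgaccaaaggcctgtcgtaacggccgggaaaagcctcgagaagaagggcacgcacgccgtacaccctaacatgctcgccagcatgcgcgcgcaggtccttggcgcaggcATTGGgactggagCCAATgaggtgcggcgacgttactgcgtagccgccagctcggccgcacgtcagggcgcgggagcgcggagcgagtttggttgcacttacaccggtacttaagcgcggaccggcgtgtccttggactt

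The NRF1 motif GCGCATGCG was present in 3 of the 8 member promoters that could be read at the gene's start, those of TFB2M, OPA1 and TFB1M, and in 1.64% of all 35116 RefSeq promoter windows of the same length. In TFB2M it began at -16 from the RefSeq start. In OPA1 and TFB1M the letters read GCGCATGCGC and so matched on both strands, from -94 and -93 in OPA1 and from -132 and -131 in TFB1M. The forkhead core TGTTTA was in none of the 8 windows, against 11.0% of all windows, and neither was the longer TGTTTAC, which contains it and was in 2.98%. The ETS motif CCGGAAG was in 2 of 8 (TFB1M and SIRT3; 8.52% of all), SP GGGCGG in 6 of 8 (42.6%) and CCAAT in 5 of 8 (32%). The CRE letters TGACGTCA (1.65% of all) and the YY1 letters AAGATGGC (1.36%) were in none. The 8 windows were rich in C and G, at 61.6% to 69.2% with 21 to 31 CpG, against medians of 58.0% and 11 over all windows, so the shares over all windows are not matched for base composition. A match describes letters, not binding. Only these exact letters were searched, so a window without a match can still hold a close variant of the motif. The RefSeq starts are on another build than the peaks and were not lined up with the summits. The windows do not reach sites downstream of the RefSeq start. The PPARGC1B window belongs to another start of that gene and was left out of these counts. It held the only TGTTTA match among the members with a sequence, at -51. No promoter sequence of the NRF1 gene was at hand, so that promoter was not searched.

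TFAM, which packages the mitochondrial genome and is needed for its transcription, had a site downstream of the start used here, which may not be the gene's main start. Its region spanned chromosome 10, 60144531 to 60145920 (hg19). The summits lay at 309, 294 and 257 bp after insulin and at 300, 263 and 263 bp without it. The fold was 13.8, 11.9 and 7.35 after insulin and 5.73, 5.91 and 7.02 without it. All 3 insulin folds were higher, as in 34.2% of regions called in all 6 libraries. Insulin replicate 3 exceeded untreated replicate 3 by little. The percentiles in the lists, 93.1, 89.7 and 81.4 after insulin and 82.0, 86.7 and 83.8 without it, overlapped. The fragments at the summit were 110, 120 and 38 after insulin and 105, 83 and 38 without it. A second, weak region at chromosome 10, 60143895 to 60144305, was called in untreated replicates 1 and 2 and in no other library. Its summits lay at -824 and -854 bp, with folds of 3.27 and 3.19 and percentiles of 7.43 and 12.6.

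TFB1M, related to TFB2M and known as the methyltransferase of the small mitochondrial ribosomal RNA, had a broad region at chromosome 6, 155634714 to 155636470 (hg19). Summits lay upstream of the start, at -130, -224 and -236 bp after insulin and at -288, -273 and -145 bp without it. The fold was 5.01, 5.67 and 5.30 after insulin and 5.14, 5.49 and 6.79 without it. These values overlapped, unlike those of TFB2M, OPA1, TFAM, CYCS and CS. The percentile in the list was 65.3, 77.4 and 65.6 after insulin and 86.1, 88.2 and 79.4 without it, so every insulin library ranked it lower. The share of all regions that did so in list percentile was not analysed here. By rank among regions called in all 6 libraries, 4.31% of those regions were lower in every insulin library. The summit held 56, 107 and 30 fragments after insulin and 147, 97 and 32 without it.

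POLG, the catalytic subunit of the polymerase that copies mitochondrial DNA, was bound at the start in every library. The region spanned chromosome 15, 89877279 to 89878959 (hg19), with summits from -134 to -1 bp. The fold was 6.31, 8.25 and 5.87 after insulin and 3.47, 4.51 and 6.84 without it. The percentiles were 69.6, 79.3 and 66.5 after insulin and 56.9, 66.7 and 77.2 without it. Both sets overlapped, with untreated replicate 3 above insulin replicate 3. The annotation also places the divergent transcript POLG-DT and a tRNA gene, TRR-TCG1-1, at this start, so the site cannot be assigned to POLG alone.

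NRF1, a transcription factor for nuclear genes of the respiratory chain, had a site at its own start in replicates 1 and 2 of both treatments and not in either replicate 3. This region spanned chromosome 7, 129250889 to 129252720 (hg19), with summits from -76 to 26 bp. The fold was 9.12 and 7.23 in insulin replicates 1 and 2 and 4.52 and 3.40 in untreated replicates 1 and 2. The peak stood at percentiles of 72.1 and 66.2 after insulin and 60.8 and 38.8 without it, in the same replicates. A second region at chromosome 7, 129254766 to 129255333, 3503 to 3544 bp downstream, was called in insulin replicate 1 and in untreated replicates 1 and 3. Its folds were 6.62, 4.93 and 4.56. In insulin replicate 3 the nearest summit was 7153 bp downstream, outside the window, with a fold of 2.87.

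The CS upstream region, described with CS below, was the only other of the 15 regions called in replicates 1 and 2 of both treatments and in no replicate 3 library. Such regions made up 6.77% of all regions. The replicate 3 lists were the shortest of their treatment, with 27503 peaks after insulin and 26082 without it.

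PPARGC1B, which encodes the coactivator PGC-1β, had only weak peaks. Insulin replicate 1 had a summit at 49 bp with a fold of 3.65 and 1 at 1482 bp with a fold of 2.77. Insulin replicate 2 had a summit at 359 bp with a fold of 2.81, and untreated replicate 3 had a summit at 1052 bp with a fold of 2.96. None of these 4 peaks stood above the 9.86th percentile of its list, and each rested on 12 to 15 fragments. They fell into 3 separate regions, 1 of them shared by insulin replicates 1 and 2. Insulin replicate 3 and untreated replicates 1 and 2 had no peak in the window, and a site as weak as these could have been missed there.

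CYCS encodes cytochrome c, the electron carrier between respiratory complexes. Its region spanned chromosome 7, 25164625 to 25165556 (hg19), with summits from -85 to -13 bp. The fold was 13.1, 13.1 and 8.70 after insulin and 6.11, 4.47 and 7.5 without it. The insulin folds were all higher, as in 34.2% of regions called in all 6 libraries. The percentiles, 91.9, 92.3 and 81.9 after insulin and 86.4, 75.8 and 83.6 without it, overlapped. The summit held 101, 141 and 33 fragments after insulin and 127, 69 and 35 without it.

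CS encodes citrate synthase, the entry enzyme of the citric acid cycle, and had 2 regions. The region at the start, chromosome 12, 56693201 to 56694720 (hg19), was called in all 6 libraries. Its fold was 9.03, 5.89 and 4.56 after insulin and 4.52, 3.26 and 2.90 without it. The groups did not overlap, with the insulin folds higher, as in 34.2% of regions called in all 6 libraries. Insulin replicate 3 and untreated replicate 1 nearly met. Its percentiles were 78.5, 62.4 and 49.6 after insulin and 69.2, 35.2 and 15.4 without it, and they overlapped. The summit lay between -138 and -7 bp in 5 libraries and at 254 bp in untreated replicate 2. The second region, chromosome 12, 56695190 to 56696668, had summits from -1685 to -1628 bp in replicates 1 and 2 of both treatments. Its folds were 5.98 and 7.07 after insulin and 4.63 and 5.09 without it, above the fold at the start in insulin replicate 2 and in untreated replicates 1 and 2.

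SIRT3, the main deacetylase of mitochondrial proteins, had its strongest summits upstream of the start used here. A gene can have several starts, and whether the starts used for SIRT3 and TFAM are RefSeq's main ones was not resolved on hg19, so these offsets do not place the site away from a promoter. The summits lay at -590, -585 and -548 bp after insulin and at -572, -568 and -590 bp without it, in a region at chromosome 11, 235255 to 237399 (hg19). The fold was 6.02, 8.21 and 4.89 after insulin and 5.61, 3.37 and 6.36 without it, and these overlapped. The percentiles also overlapped, at 63.5, 79.2 and 50.8 after insulin and 79.8, 45.7 and 74.5 without it. Insulin replicate 3 and untreated replicates 2 and 3 had a second, weaker summit downstream of the start, at 261, 769 and 267 bp. In the annotation PSMD13, a proteasome subunit gene, runs from the opposite strand just upstream, so the site cannot be assigned to SIRT3 alone.

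**Figure D2:**
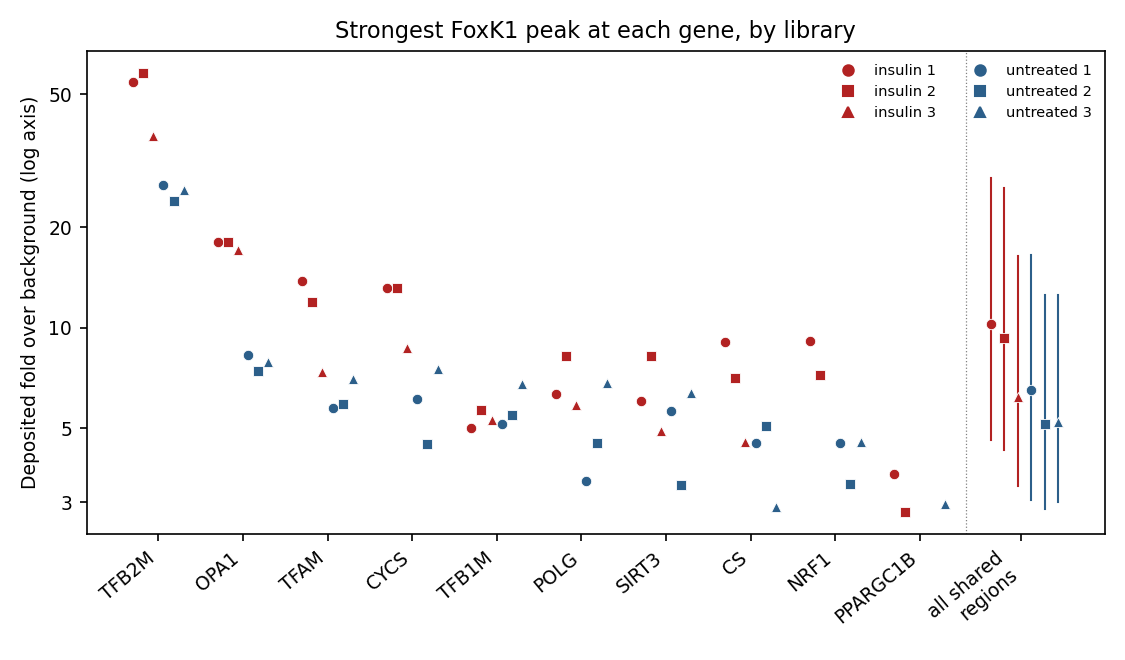
Deposited fold of the strongest peak in each gene's window on a log axis, 1 point per library (red insulin, blue untreated, marker by replicate number); at the right, points give the median over all 15887 regions called in all 6 libraries and lines run from the 5th to the 95th percentile. TFB2M is the highest in each library, at 37.6 to 58.0 after insulin and 23.9 to 26.7 without it, and the medians at the right are also higher in insulin replicates 1 and 2, at 10.2 and 9.33, than in the untreated libraries, at 5.14 to 6.51.

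The fold combines fragments and background, and both were read at the 8 sites called in all 6 libraries; the part of either in the fold differences was not tested. The background at the summit was higher in untreated than in insulin replicate 1 at 8 of 8 sites, with medians of 19.1 and 6.90 fragments. It was higher in untreated than in insulin replicate 2 at 7 of 8, with medians of 12.3 and 9.33, and in untreated replicate 3 at 6 of 8, with medians of 4 and 3.63. The fragments at the summit did not follow this order. They were higher in the untreated library at 7 of 8 sites for replicate 1, at 0 of 8 for replicate 2 and at 4 of 8 for replicate 3. At none of the 8 sites were the treatments free of overlap in fragments or in background. Neither set of values is adjusted for the number of reads, which is unknown.

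**Figure D3:**
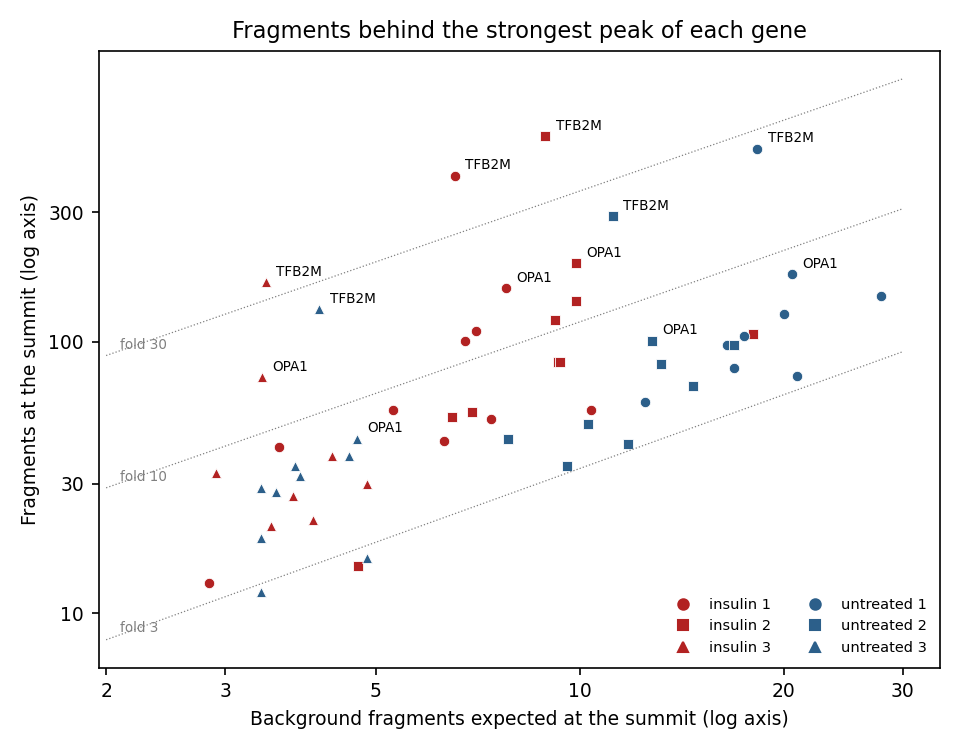
Fragments at the summit against the background expected there for the strongest peak of each gene in each library, both on log axes; dotted lines mark folds of 3, 10 and 30, and the points of TFB2M and OPA1 are named. Over the 8 shared sites, untreated replicate 1 has the highest median background, at 19.1 fragments. The replicate 3 libraries have the lowest there, at medians of 3.63 after insulin and 4 without it. The leftmost point of all is PPARGC1B in insulin replicate 1, at 2.84.

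To compare the treatments on lists of 1 length, each site was ranked by −log10 q among the 15887 regions that all 6 libraries had called. OPA1 ranked higher after insulin and TFB1M ranked lower, without overlap between treatments, and the other 6 genes overlapped. OPA1 stood at the percentiles 90.6, 89.9 and 95 after insulin and 83.6, 85.4 and 81.5 without it. The means were 91.8 ± 2.80 and 83.5 ± 1.96 (SD, n = 3 each), a difference of 8.30 (two-sided exact permutation p = 0.1, the smallest that 3 against 3 allows). TFB1M stood at 22.5, 43.3 and 44.6 after insulin and at 63.3, 77.0 and 66.8 without it. Its means were 36.8 ± 12.4 and 69.0 ± 7.12 (SD, n = 3 each), a difference of -32.2 (two-sided exact permutation p = 0.1). Over all 15887 regions, 4.66% ranked higher in every insulin library and 4.31% ranked lower, and the Benjamini-Hochberg adjusted exact p was 0.999 for both genes. No change can therefore be called for either gene.

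TFB2M stood between 99.3 and 99.6 in all 6 libraries. TFAM had means of 73.1 ± 5.64 after insulin and 67.4 ± 11.5 without it (SD, n = 3 each), and POLG had 40.4 ± 10.6 and 41.5 ± 22.7. At both genes the treatments overlapped, and neither difference exceeded the SD of the untreated libraries. CYCS, with 74.6 ± 4.70 and 64.4 ± 8.72, and CS, with 29.4 ± 12.2 and 15.7 ± 14.8, were higher on average after insulin, with overlap. SIRT3 had 31.3 ± 13.9 and 43.1 ± 20.3. The differences at CS (13.7) and SIRT3 (-11.8) were also smaller in size than the SD of the untreated libraries. The two-sided exact permutation p of these 6 genes lay between 0.2 and 1. With same-numbered libraries compared as pairs (replicate block), 2 genes ranked higher after insulin in every pair, OPA1 and CS, and TFB1M ranked lower in every pair. Over all 15887 regions, 14.6% ranked higher in every pair and 13.8% lower. A paired exact sign-flip test with 3 pairs cannot go below 0.25.

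**Figure D4:**
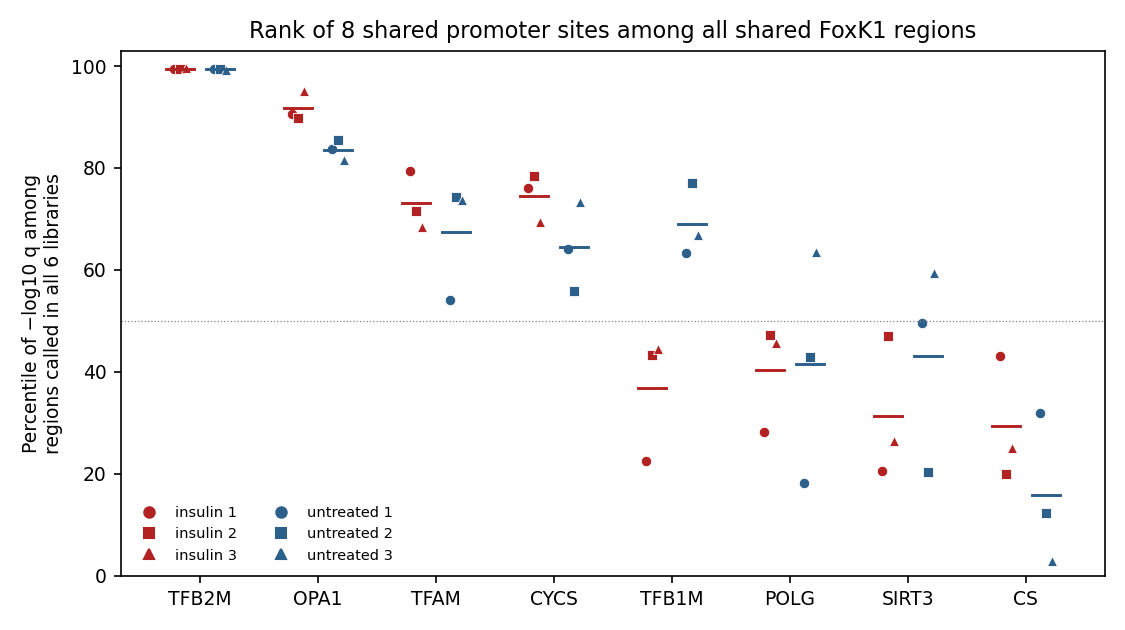
Percentile of −log10 q of 8 gene-start sites among the 15887 regions called in all 6 libraries, ranked within each library (red insulin, blue untreated, marker by replicate number; bars are means of 3, and the dotted line is the 50th percentile). OPA1 is higher in all 3 insulin libraries (89.9 to 95 against 81.5 to 85.4) and TFB1M lower (22.5 to 44.6 against 63.3 to 77.0), while TFB2M stays between 99.3 and 99.6.

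Summit position and peak width did not separate the treatments at any of the 8 sites. Over all regions called in all 6 libraries, summits were free of overlap in 8.91%, and insulin peaks were wider without overlap in 4.35% and narrower in 1.09%. At TFB2M the mean summit lay at 1 ± 2.65 bp after insulin and at -1 ± 7.81 bp without it (SD, n = 3 each). At OPA1 the mean width was 995 ± 138 bp after insulin and 659 ± 335 bp without it (SD, n = 3 each; two-sided exact permutation p = 0.3). Width depends on depth as well as on binding. Over the 8 sites the two-sided exact permutation p lay between 0.3 and 0.9 for the summit and between 0.2 and 1 for the width.

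The number of peaks in the 10 windows differed little between treatments. It was 13, 11 and 9 after insulin and 12, 12 and 11 without it, with means of 11 ± 2 and 11.7 ± 0.577 (SD, n = 3 each). All 10 genes had a peak in insulin replicates 1 and 2 and in untreated replicate 3, 9 genes in untreated replicates 1 and 2, and 8 in insulin replicate 3. The strongest peak per gene stood at a median percentile of 75.3, 79.2 and 74.0 after insulin and 82.0, 75.8 and 78.3 without it, so the typical gene of this set with a peak had a site in the upper part of its list. Among regions called in all 6 libraries the middle site had a mean percentile of 73.0, and 5 of the 8 genes were above it: TFB2M at 99.7, OPA1 at 94.3, TFAM at 86.1, CYCS at 85.3 and TFB1M at 77.0. POLG at 69.4, SIRT3 at 65.6 and CS at 51.7 were below it. Summit spans differed as widely, from 14 bp at TFB2M, 35 bp at OPA1, 42 bp at SIRT3 and 52 bp at TFAM to 158 bp at TFB1M and 392 bp at CS.

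Just outside the windows, between 5 and 10 kb from a start, lay 7 further peaks, none above the percentile 39.8 of its list. They included a site 7979 to 8022 bp downstream of the TFB2M start in insulin replicates 1 and 2 and untreated replicate 1, with folds of 4.49, 4.85 and 5.09. Others lay downstream of NRF1 at 8340 bp in insulin replicate 2, 8336 bp in untreated replicate 1 and 7153 bp in insulin replicate 3, and of CYCS at 7908 bp in untreated replicate 1. The farthest summit inside a window was that of NRF1 at 3544 bp.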

How the data were processed

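The members and lists were chosen with earlier results of these data known. The submitters' processing notes name hg19 and list MACS2, SAMtools, Bowtie2 and fastp; for these, the version, the role and any threshold or control are not given in the sources. The authors deposited 1 peak list for each of the 6 immunoprecipitated libraries, and the 6 input libraries were not analysed. In these lists the lowest −log10 p was 3.00 or 3.01, and the lowest −log10 q ran from 0.77 to 1.04. The deposited fold is a linear ratio of a peak's summit to its background, the deposited −log10 q and −log10 p grow with depth, and the deposited score, close to 10 times −log10 p, was not used.

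Peaks sharing at least 1 bp were merged into regions; a library's strongest peak stood for it. Coordinates are 1-based. Fragments k and background b solved fold = (k + 1)/(b + 1) and the Poisson upper tail p; a single whole number met both within 0.0005 (in proportion above 10) for all 68 peaks. Insulin was tested against untreated with a two-sided exact permutation test (20 assignments), adjusted over all regions called in all 6 libraries. The ranks and folds compared among shared regions were added after seeing the data. The steps were tested on simulated data. There, all 243 moved summits were called separate between treatments, and so were 206 of 2145 unmoved ones. All 10 genes are named by rule, and gene starts come from that rule. Strands of 9 genes were checked against RefSeq; other pathway genes were not analysed here, since their hg19 starts were not at hand. Same-numbered libraries were taken as pairs from the data alone: their deviations correlated at 0.22, 0.244 and 0.499 in log2 fold and at 0.123, 0.3 and 0.307 in rank. In log2 fold, insulin replicate 2 correlated better with untreated replicate 1 (0.279). Python 3.11.15, numpy 2.4.6, pandas 2.3.3, scipy 1.17.1 and matplotlib 3.10.9 were used.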

Additional observations from a re-analysis of the deposited data

How the results depend on the processing

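Genes with a site in every library numbered 7 to 9 over 13 alternatives (8 as reported). The difference in peaks over the 10 windows, -0.667, ran from -1.67 to 0.333 over 14 alternatives, within the spread between libraries, and was -0.667 with the replicate block. With a limit of 200 bp in place of 500 bp, 4 genes had a summit at the start in every library. At 500 bp the number was 6 with −log10 q of at least 5. It was 8 without both replicate 3 libraries and 8 with peaks that overlap the limit. With each library left out, regions found only after insulin numbered 0 to 1 (PPARGC1B, without insulin replicate 3) and only in untreated cells 0 to 1 (TFAM upstream, without untreated replicate 3). Without both replicate 3 libraries there was 1 of each; with fewer libraries such a count is reached more easily. Sites with separate summits numbered 0 to 1 with each library left out (1 without insulin replicate 2 or untreated replicate 3) and 3 without both replicate 3 libraries. Sites with separate widths numbered 0 to 3 (most without untreated replicate 1; none only without insulin replicate 3) and 1 without both. The median percentile of 77.4 was 70.6 with −log10 q of at least 5 and 69.2 with equal list lengths, both of which drop the weakest peaks. Sites with all insulin folds higher numbered 5, and 34.2% of all shared regions did the same. These sites numbered 6 without untreated replicate 3. They numbered 4 with −log10 q of at least 5 and 4 with regions from summits within 100 bp. Without both replicate 3 libraries such sites numbered 9. POLG and SIRT3, and the NRF1 start and CS upstream sites that are then shared, joined, with fewer libraries to separate. The share over all shared regions was not analysed with libraries left out, here or for the counts above and below. OPA1 ranked higher and TFB1M lower after insulin in all 14 alternatives. Most of these could hardly differ. Fewer libraries or pairs keep a separation already seen, apart from slight re-ranking, and the window settings leave the ranks unchanged. The count ranked higher was 1 to 3 with each library left out (TFB2M without insulin replicate 1, CYCS without insulin or untreated replicate 3, CS and TFB2M without untreated replicate 1 joining), 3 without both replicate 3 libraries (CYCS and NRF1 joining) and 2 with the replicate block. The count ranked lower was 1 to 2, with SIRT3 joining without untreated replicate 2. The block changed no other count by over 1.5 times.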
